A study of Mus musculus with 3 samples.

Results

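The cells described here are the E12.5 germ cells that stood highest in mitosis genes. A mitosis score was computed for each cell of the E12.5 library as the mean natural log (ln) value of Ccnb1, Aurka, Cdc20, Plk1, Cenpf, Cenpe and Ube2c. The 25% of cells with the highest score were chosen by these values, 1176 of 4706 E12.5 cells and of 19144 cells in all. They are called the high-score group and were set against the 1176 cells of the lowest 25%, the low-score group, with the upper and the lower middle group between them. The cells came from C57BL/6 mice, from fetal ovaries, and had been sorted on a MoFlo XDP for Oct4-EGFP, a reporter of the germ cell gene Pou5f1. Single-cell 3' RNA was measured in 3 libraries, at embryonic days 12.5, 14.5 and 16.5, with 1 library per stage and no treatment or mutation in any of them. How many animals were pooled for a library is not stated in these sources.

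Mouse primordial germ cells reach the fetal gonad while still dividing by mitosis, and in the ovary they then stop dividing, copy their DNA a last time and enter meiosis. A dividing cell makes the proteins of DNA replication around S phase and those of the spindle, the kinetochores and cell separation in G2 and mitosis, so that the transcripts of both programmes peak at different times. Many G2 and mitosis genes carry in their promoters a short element, the cell cycle genes homology region (CHR), bound by complexes built on MuvB proteins, often near CCAAT boxes bound by NF-Y, while many S phase genes carry E2F sites.

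The promoters of 4 genes show these elements beside the measurements that follow. They are RefSeq windows on GRCm38.p6 from 250 bases before to 50 bases after the gene start, written 5′ to 3′ on the gene's strand. Capitals mark the CHR (TTTGAA) and the CCAAT box (CCAAT, or ATTGG where it lies on the other strand) in the first 3, genes higher in the high-score group, and the E2F motif (GCGGGAA) in the last, a gene lower there. The windows lie at chr11:40733388-40733687 (minus strand) for Hmmr, chr7:80294201-80294500 (plus strand) for Prc1, chr4:147868670-147868969 (minus strand) for Miip and chr16:93883651-93883950 (plus strand) for Chaf1b.
Hmmr: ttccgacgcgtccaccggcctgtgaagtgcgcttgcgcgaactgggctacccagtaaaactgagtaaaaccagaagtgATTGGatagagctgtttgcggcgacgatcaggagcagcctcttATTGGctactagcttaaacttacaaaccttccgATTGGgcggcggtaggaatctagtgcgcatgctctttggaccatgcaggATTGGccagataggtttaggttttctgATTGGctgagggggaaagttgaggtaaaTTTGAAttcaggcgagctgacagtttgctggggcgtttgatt
Prc1: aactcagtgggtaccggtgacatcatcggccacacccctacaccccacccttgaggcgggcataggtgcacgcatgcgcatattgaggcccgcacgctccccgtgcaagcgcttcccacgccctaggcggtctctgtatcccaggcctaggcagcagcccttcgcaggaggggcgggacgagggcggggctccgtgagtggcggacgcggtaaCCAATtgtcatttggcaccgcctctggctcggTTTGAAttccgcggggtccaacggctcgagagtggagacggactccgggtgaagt
Miip: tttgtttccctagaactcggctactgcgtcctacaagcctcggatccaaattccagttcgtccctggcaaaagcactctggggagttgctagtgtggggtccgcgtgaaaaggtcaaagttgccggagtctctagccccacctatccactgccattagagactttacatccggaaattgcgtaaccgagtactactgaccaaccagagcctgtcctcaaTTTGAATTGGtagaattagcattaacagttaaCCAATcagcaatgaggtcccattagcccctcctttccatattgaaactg
Chaf1b: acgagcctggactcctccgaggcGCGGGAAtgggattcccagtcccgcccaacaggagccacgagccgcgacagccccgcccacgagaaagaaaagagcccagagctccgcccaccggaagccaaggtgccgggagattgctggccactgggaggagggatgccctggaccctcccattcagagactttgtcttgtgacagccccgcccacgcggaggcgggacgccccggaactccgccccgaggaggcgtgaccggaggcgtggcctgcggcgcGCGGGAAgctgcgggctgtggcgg
The CHR began 8 bases after the start of Hmmr, 5 bases before that of Prc1 and 31 bases before that of Miip, where it shares bases with a CCAAT box. Hmmr held 5 CCAAT boxes, and Chaf1b held 2 E2F motifs, 227 bases before and 26 bases after its start.

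The 4 groups of E12.5 cells were close to each other in depth. Median unique molecular identifiers (UMIs, each marking 1 RNA molecule) per cell were 27583.5, 26608, 26949 and 25650 from the high-score to the low-score group, and the sums over cells were 32284757, 31415673, 31633009 and 30314873 UMIs. The high-score group had a median of 4738.5 genes per cell and the low-score group 4540.5, and 29.8% against 14.8% of the cells had over 5000 genes. Mitochondrial genes took 2.84% to 2.87% of UMIs and ribosomal protein genes 30.9% to 31.3% in the 4 groups. Cells with UMIs of at least 5 pregranulosa markers, the genes of the supporting cells of the ovary, numbered 1 in the high-score group, 1 and 2 in the upper and lower middle groups and 20 in the low-score group. Although the library is labelled female, a Y-linked UMI was found in 178 cells of the high-score group (15.1%, exact binomial 95% interval 13.1% to 17.3%) and in 123 of the low-score group (10.5%, 8.77% to 12.4%). Of cell barcodes, 58 occurred in both the E12.5 and the E14.5 library, 43 in E12.5 and E16.5 and 72 in E14.5 and E16.5. The counts of higher and lower genes below are given with and without the cells carrying pregranulosa markers or those carrying a Y-linked UMI. So are the levels or ratios of several named genes that cross 1.5-fold when such cells are left out. Cells whose barcode occurs in another library were kept.

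The score is a continuous measure, and the high-score group is a range of it. The lowest score inside was 1.3175 and the highest outside 1.31743, and 376 cells lay within 0.05 of that threshold. Cells of the high-score group had UMIs of a median of 7 of the 7 scoring genes, and those of the low-score group of 5. The scoring genes chose the cells, so their levels are only a description: in counts for each 1000000 UMIs of a group (CPM), Cdc20 was at 497.4, 326.9, 164.9 and 66.4 from the high-score to the low-score group, and Ccnb1 at 649.1, 421.2, 280.6 and 186.3. Germ cell genes were present in both end groups, as the label germ cells requires. Pou5f1, the gene behind the sorting reporter, was at 645.7 CPM in the high-score and 721.5 in the low-score group, the RNA-binding factor Dazl at 479.5 and 439.2, and the helicase Ddx4 at 116.5 and 130.0.

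Part of the genes of cell division other than the scoring genes were higher in the high-score group, and part of those of DNA replication were lower. Genes of at least 5 CPM over all E12.5 cells were compared, 8196 without the scoring genes, as the ratio of the groups' CPM. With 1 library there are no replicates, so there is no test, and since the contrast is the one that chose the cells, its counts are a description. Intervals in parentheses beside a ratio are exact 95% intervals of the UMI counts and cover counting error only. Of the 8196 genes, 288 were at least 1.5-fold higher in the high-score group (3.51%) and 298 at least 1.5-fold lower (3.64%), the median log2 ratio was 0.02, and 76.8% of genes were within 1.25-fold. At 2-fold the counts were 64 (0.781%) and 75 (0.915%). Of 164 measured mitotic genes, 61 were at least 1.5-fold higher, 99 between and 4 lower, with a median log2 ratio of 0.32, and of 96 S phase genes 33 were lower, 62 between and 1 higher, with a median of -0.39. Against the other 3530 E12.5 cells in place of the low-score group, 97 genes were higher and 136 lower. Without the cells carrying pregranulosa markers or called doublets the counts were 294 and 273, and without the cells carrying a Y-linked UMI 288 and 306.

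**Figure D1:**
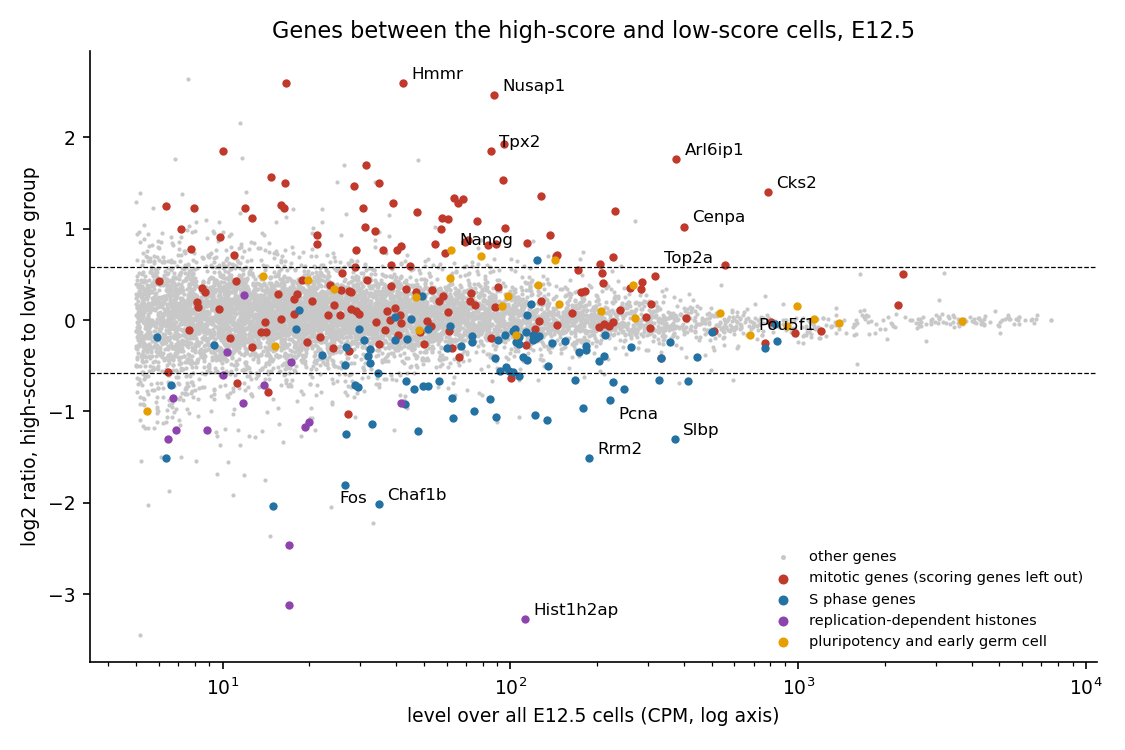
Each point is 1 of the 8196 compared genes, placed by its level over all E12.5 cells (CPM, log axis) and its log2 ratio of the high-score to the low-score group of the mitosis score. Dashed lines mark 1.5-fold, red points are mitotic genes, blue points S phase genes, purple points replication-dependent histones and orange points pluripotency and early germ cell genes. Hmmr and Nusap1 sit near the upper edge and Hist1h2ap near the lower edge.

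Spindle genes stood highest as a group. Of 38 measured spindle, kinesin and microtubule genes, 32 were at least 1.5-fold higher and 0 lower, with a median log2 ratio of 1.01 against 0.02 over all genes. Levels increased at each step from the low-score to the high-score group for 31 of the 38, against 20.9% of all genes. Hmmr, a microtubule-bound protein that helps to assemble the spindle, was at 80.8, 50.1, 23.3 and 13.4 CPM from the high-score to the low-score group, a ratio of 6.02 (5.42 to 6.70). Nusap1, which bundles spindle microtubules around chromosomes, was at 161.7, 103.9, 51.6 and 29.3 CPM, a ratio of 5.51 (5.13 to 5.93). Both genes stepped down from each group to the next. Fam83d, which recruits a kinase to the spindle and is also in the cytokinesis list, was at 34.8 and 5.74 CPM in the end groups. Tpx2, the activator of Aurora A on microtubules, was at 142.4, 100.1, 57.2 and 39.5 CPM, a ratio of 3.60. The motor Kif11, which pushes the spindle poles apart, was at 58.6 and 24.1 CPM in the end groups, a ratio of 2.43, and the depolymerising kinesin Kif2c at 85.4 and 39.3, a ratio of 2.17. Kpna2, an importin that handles spindle factors among its cargoes, had a ratio of 2.57. The tubulin Tubb4b, the most abundant of the genes named in this group, was at 695.8 and 458.6 CPM, a ratio of 1.52.

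The genes of cell separation and of the chromosomal passenger complex, which carries Aurora B from centromeres to the cell equator, followed. Of 9 passenger complex and shugoshin genes, 7 were at least 1.5-fold higher and 0 lower (median log2 ratio 0.83). The kinase Aurkb itself, not a scoring gene, was at 75.3, 54.5, 45.9 and 42.2 CPM, a ratio of 1.78 (1.67 to 1.91). Its scaffold Incenp was at 189.0 and 99.0 CPM in the end groups and its partner Birc5 at 257.0 and 168.3, ratios of 1.91 and 1.53. Of 18 cytokinesis genes, 9 were higher and 0 lower (median 0.61). Prc1, which crosslinks the microtubules of the spindle midzone, was at 147.1, 104.6, 71.7 and 50.7 CPM, a ratio of 2.90 (2.74 to 3.08). The midzone motor Kif23 was at 58.1 and 20.5 CPM and the activator of the contractile ring Ect2 at 44.1 and 15.9, ratios of 2.84 and 2.77. Both proteins act when the cell body divides.

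At the kinetochore the difference was spread unevenly over the members. Of 35 measured kinetochore and centromere genes, 9 were at least 1.5-fold higher, 1 lower and 25 between (median log2 ratio 0.26). Cenpa, the histone variant that marks centromeres, was at 546.2, 441.5, 334.0 and 268.8 CPM, a ratio of 2.03. Knstrn, a spindle and kinetochore protein, had a ratio of 3.24. The gene at least 1.5-fold lower was Nsl1, a subunit of the MIS12 complex, at 8.43 and 13.6 CPM, 1.61-fold lower, and 1.47-fold lower without the cells carrying a Y-linked UMI. Of 12 spindle assembly checkpoint genes, which hold back anaphase until chromosomes are attached, 3 were higher and 1 lower (median 0.14). Bub3 was at 331.1 and 145.1 CPM in the end groups and Bub1b at 64.3 and 28.4, ratios of 2.28 and 2.27. The lower member was Mad2l2, at 18.6 and 37.7 CPM, a protein also known as a subunit of a DNA polymerase used past lesions.

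The regulators of mitotic entry and exit divided into genes that tracked the score closely and genes that hardly did. Of 21 entry genes without the scoring genes, 6 were at least 1.5-fold higher and 0 lower (median log2 ratio 0.20). Cks2, a small subunit of cyclin-dependent kinase complexes, was at 1129, 941.2, 618.2 and 427.8 CPM, a ratio of 2.64 (2.59 to 2.69). Cdk1, the kinase of mitotic entry, was at 151.3 and 84.3 CPM, a ratio of 1.79, and the phosphatase that activates it, Cdc25c, at 22.9 and 9.57, a ratio of 2.39. The cyclins differed less: Ccnb2 was at 342.9, 283.2, 264.3 and 256.6 CPM, a ratio of 1.34 (1.30 to 1.38), and Ccna2 at 190.8, 181.4, 173.1 and 154.2, a ratio of 1.24 (1.19 to 1.29). Ccna2 acts from S phase on, before the other mitotic cyclins. Ccnf, a cyclin-like ubiquitin ligase subunit, was at 108.8 and 43.5 CPM, a ratio of 2.50. Of 20 genes of the anaphase-promoting complex and its regulators, 1 was higher, 1 lower and 18 between (median 0.13). The higher gene was Fzr1, the coactivator that works at mitotic exit and in G1, at 100.9, 64.9, 47.3 and 40.1 CPM, a ratio of 2.52 (2.36 to 2.69). The lower gene was Fbxo5, an inhibitor of the complex made around the onset of S phase, at 75.9, 91.8, 116.8 and 118.2 CPM, 1.56-fold lower. Most measured subunits of the complex were thus below the fold used for a call.

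Structural genes of chromosomes, centrosomes and the nuclear envelope differed little. Of 20 condensation genes 2 were higher and 1 lower (median log2 ratio 0.19), with Mki67, which coats mitotic chromosomes, at 84.7 and 47.0 CPM in the end groups and Top2a, the DNA-untangling enzyme, at 377.6 and 270.3, a ratio of 1.40. Of 24 centrosome and centriole genes 1 was higher and 2 lower (median -0.01). These were Nde1, a dynein regulator, with a ratio of 2.33, and Haus8, of the augmin complex, and Tubg1, of the tubulin ring that seeds microtubules, 1.76-fold and 1.63-fold lower. Of 24 nuclear envelope genes 2 were higher and 0 lower (median -0.04), and of 12 mitotic cohesin genes 0 passed the fold in either direction (median 0.16).

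**Figure D2:**
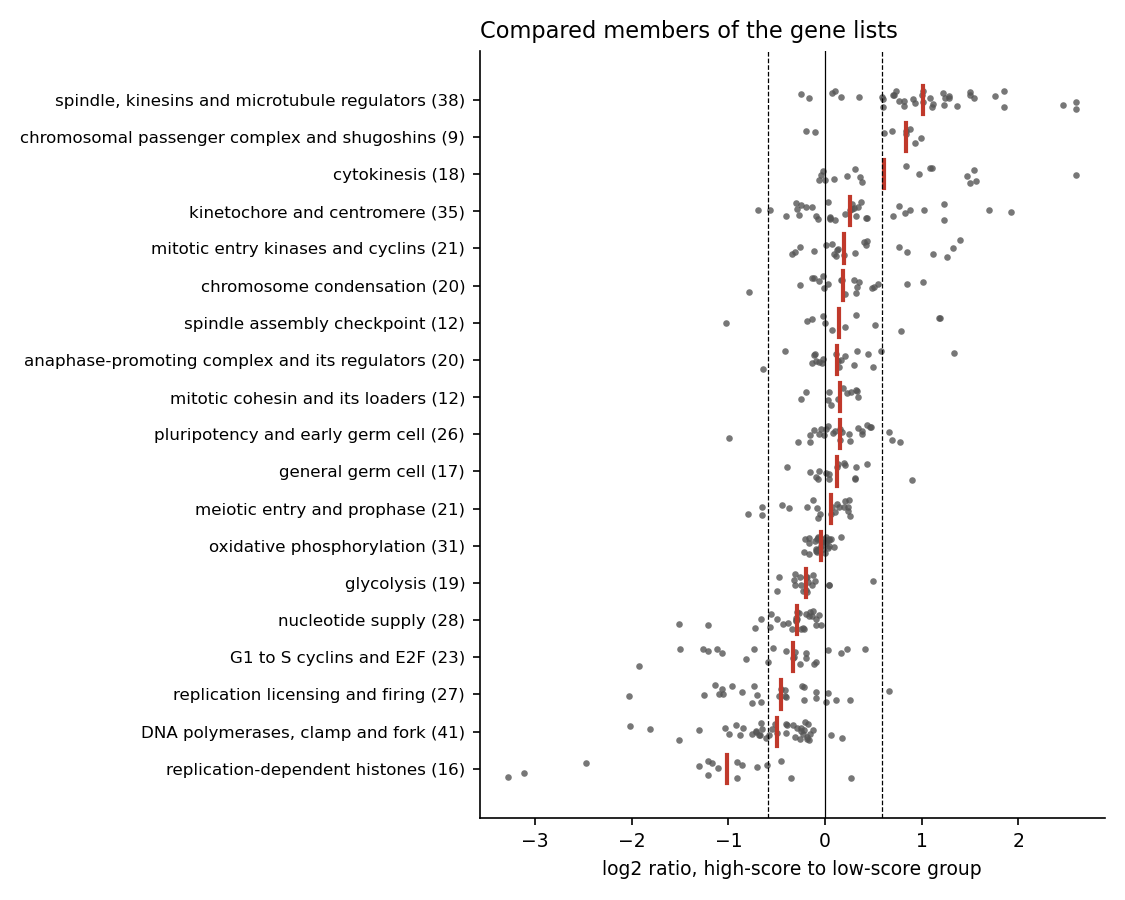
Each grey point is a compared gene of the list named at the left, with the number of compared members in parentheses, placed by its log2 ratio of the high-score to the low-score group. Red bars are list medians and dashed lines mark 1.5-fold. Medians run from 1.01 for spindle genes to -1.01 for replication-dependent histones, and oxidative phosphorylation genes crowd around 0.

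Replication genes made up the other end. Of 41 genes of DNA polymerases, the sliding clamp and the fork, 17 were at least 1.5-fold lower in the high-score group and 0 higher (median log2 ratio -0.50), and 33 of the 41 decreased at each step from the low-score to the high-score group, against 17.2% of all genes. Chaf1b, a subunit of the assembly factor that places histones on new DNA, was at 13.9, 26.4, 44.8 and 56.0 CPM from the high-score to the low-score group, 4.03-fold lower. Dscc1, part of a clamp loader, was at 12.0 and 41.9 CPM in the end groups, 3.50-fold lower. The clamp Pcna was at 151.5, 200.6, 256.9 and 278.6 CPM, 1.84-fold lower. Each of these genes was lowest in the high-score group and highest in the low-score group.

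Among 27 genes that license and fire replication origins, 12 were at least 1.5-fold lower and 1 higher (median log2 ratio -0.45). Gins2, of the replicative helicase, was at 5.61, 12.7, 18.9 and 22.9 CPM, 4.09-fold lower. The licensing factor Cdc6 was at 15.2 and 36.1 CPM, 2.38-fold lower, and the origin subunit Orc6 at 84.8 and 181.1, 2.14-fold lower. The higher gene was Dbf4, the regulatory subunit of the Cdc7 kinase that fires origins, at 155.0, 134.8, 106.5 and 98.1 CPM, a ratio of 1.58 (1.51 to 1.65). Cdc7, its catalytic partner, was at 21.2, 27.5, 34.7 and 35.3 CPM, 1.66-fold lower, so that the 2 subunits of 1 kinase ran in opposite directions over the groups. Of 28 nucleotide supply genes, 4 were lower and 0 higher (median -0.29). Rrm2, the subunit of ribonucleotide reductase made in S phase, was at 96.7, 150.4, 232.9 and 276.0 CPM, 2.85-fold lower, and the thymidine kinase Tk1 at 29.2 and 67.6, 2.32-fold lower.

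Some regulators of the G1 to S transition were also lower. Of 23 compared, 9 were at least 1.5-fold lower, 14 between and 0 higher (median log2 ratio -0.33). Ccne1, the cyclin that opens S phase, was at 56.5, 75, 106.7 and 122.4 CPM, 2.17-fold lower, and its kinase Cdk2 at 10.8 and 25.9, 2.41-fold lower. The repressor E2f8 was at 4.15 and 15.7 CPM, 3.78-fold lower, and the activator E2f1 at 57.9 and 102.0, 1.76-fold lower. The kinase inhibitor Cdkn1c was at 28.1 and 64.7 CPM, 2.31-fold lower, but 1.37-fold lower without the cells carrying pregranulosa markers, so it does not reach 1.5-fold without them. Of 35 DNA repair genes, 6 were lower and 0 higher (median -0.17). Bbc3, a cell death gene induced by p53 that stands in the same list, was at 8.30 and 19.3 CPM, 2.32-fold lower with these cells and 2.30-fold without them.

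A histone transcript held the widest lower ratio among the genes of at least 20 CPM. Of 46 replication-dependent histone genes in the table, 16 reached 5 CPM, and of these 13 were at least 1.5-fold lower and 0 higher (median log2 ratio -1.01). Hist1h2ap was at 22.3, 62.7, 155.9 and 216.1 CPM from the high-score to the low-score group, 9.69-fold lower, and the linker histone Hist1h1b at 3.72, 10.3, 22.8 and 32.2, 8.66-fold lower. Slbp, the protein that binds the stem-loop at the end of histone transcripts, was at 209.0, 315.4, 458.6 and 514.5 CPM, 2.46-fold lower. Most such transcripts lack a poly(A) tail and the libraries were made from poly(A) RNA, so these levels count the tailed molecules. Histone genes are near-identical copies, and reads could have been split among them or lost, so single members are uncertain.

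Along the deciles of the score both programmes crossed gradually. Hist1h2ap was at 215.3 and 224.0 CPM in the lowest 2 deciles of cells, 122.2 in the fifth decile from the bottom, 27.4 in the eighth and 20.7 in the highest. Hmmr was at 13.4, 14.5 and 15.8 CPM in the lowest 3 deciles, 27.1 in the fifth, 66.9 in the eighth and 92.6 in the highest. The low end was thus nearly flat for Hmmr, and the histone was nearly flat at the high end. Top2a, between both programmes, went from 256.7 CPM in the lowest decile to 405.0 in the highest, and Pou5f1 from 738.0 to 647.6.

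**Figure D3:**
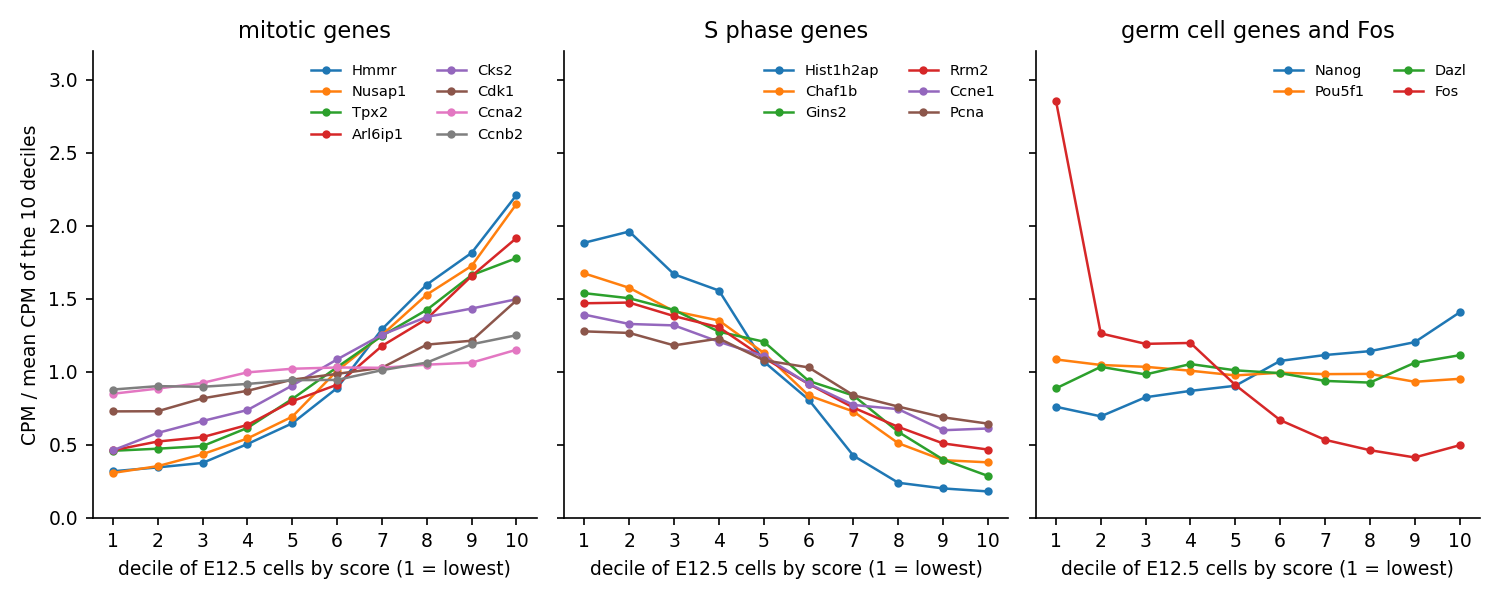
CPM of single genes in each decile of E12.5 cells by the mitosis score (1 is lowest), divided by the mean of the 10 deciles, for mitotic genes, S phase genes, and germ cell genes with Fos. Hmmr and Nusap1 increase over the upper deciles, Hist1h2ap falls below the other S phase genes there, Dazl and Pou5f1 stay near 1, and Fos is highest in the lowest decile (69.1 CPM).

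The 15 genes with the widest ratios in each direction (of at least 20 CPM) included several not known first for the cell cycle. Arl6ip1, a protein that shapes the endoplasmic reticulum and also stands in the spindle list, was at 636.8, 411.4, 255.7 and 188.3 CPM from the high-score to the low-score group, a ratio of 3.38 (3.28 to 3.48). Reep4, which clears that membrane from mitotic chromosomes, was at 41.8 and 14.7 CPM, and Miip, named as an inhibitor of migration and invasion, at 53.2 and 18.7, both with a ratio of 2.84. Blnk, an adaptor known from B cell receptor signalling, was at 77.0, 57.0, 32.5 and 22.9 CPM, a ratio of 3.36 (3.09 to 3.66), and over whole libraries at 47.8 CPM at E12.5, 5.17 at E14.5 and 0.47 at E16.5. Blood and immune markers summed to 5.51 CPM in the high-score and 8.05 in the low-score group. These sums came from Cd52 and Tyrobp only, with S100a8 and S100a9 at 0 in both. Whether blood cells contributed to Blnk was not tested. The ratio of Blnk was 3.32 without the cells carrying pregranulosa markers and 3.35 without those carrying a Y-linked UMI. Among the genes lower in the high-score group were Cnih2, a cornichon family protein, and Nudt22, of the nudix hydrolases, 2.31-fold and 2.11-fold lower.

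Most genes of germ cell identity differed little between the groups, with a few exceptions. Of 26 pluripotency and early germ cell genes, 3 were at least 1.5-fold higher in the high-score group and 1 lower (median log2 ratio 0.15), and 12 increased at each step. Nanog, a core factor of pluripotency, was at 78.2, 68.7, 54.4 and 45.9 CPM, a ratio of 1.71 (1.60 to 1.82). The ratio was 1.71 both without the cells carrying pregranulosa markers and without those carrying a Y-linked UMI. Zfp42, another marker of the pluripotent state, was at 96.6 and 59.6 CPM and Tcl1, a coactivator of AKT, at 175.7 and 111.4, ratios of 1.62 and 1.58. The lower gene was Klf4, at 4.24 and 8.45 CPM, 1.99-fold lower with the pregranulosa marker cells and 1.46-fold without them. Of 17 general germ cell genes 1 was higher, Tex101, a surface protein of germ cells, at 11.3 and 6.07 CPM, a ratio of 1.87.

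Of 21 genes of meiotic entry and prophase, 3 were at least 1.5-fold lower and 0 higher (median log2 ratio 0.06). The 3 were not meiotic genes proper but Id1, Id2 and Id3, inhibitors of basic helix-loop-helix factors and targets of BMP signals. Id3 was at 470.8, 521.3, 653.5 and 742.4 CPM, 1.58-fold lower, Id1 at 102.8, 104.7, 131.8 and 161.8, 1.57-fold lower, and Id2 at 56.7, 69.2, 87.6 and 98.6, 1.74-fold lower. Without the cells carrying pregranulosa markers they were 1.56-fold, 1.52-fold and 1.71-fold lower. Stra8, the gene that starts meiosis, was low throughout at 2.48, 2.29, 4.65 and 3.69 CPM, against 1440 CPM over the E14.5 library. It lay under the 5 CPM required of compared genes, so its ratios rest on few UMIs. Without the cells carrying pregranulosa markers it was 1.52-fold lower in the high-score group, on 78 against 112 UMIs. As high-score to low-score that is a ratio of 0.66 (0.49 to 0.89). Without the cells carrying a Y-linked UMI it was 1.51-fold lower, a ratio of 0.66 (0.48 to 0.91).

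Immediate-early genes and most pregranulosa markers were lower in the high-score group. Of 16 immediate-early and heat shock genes, 4 were at least 1.5-fold lower in the high-score group and 0 higher (median log2 ratio -0.00), and all 4 were immediate-early genes: Fos, Btg2, Jun and Junb. Fos was at 10.9, 14.0, 26.1 and 45.0 CPM, 4.12-fold lower with the pregranulosa marker cells and 3.14-fold without them. Btg2 was 5.13-fold lower with and 3.44-fold without them, and Junb 2.58-fold and 1.90-fold. Jun was 3.21-fold lower with and 1.29-fold without them, which does not reach 1.5-fold. Pregranulosa markers, 20 of 24 of them in the table, summed to 64.5 CPM in the high-score and 91.7 in the low-score group. The defining markers Wt1, Fst and Wnt6 were at 0.68, 0.62 and 0.34 CPM in the high-score and at 3.76, 6.37 and 4.16 in the low-score group. Of the 20 markers 18 were lower in the high-score group, Gata2, the most abundant, only slightly at 40.4 and 41.6 CPM, and 2 were higher, Nr0b1 at 12.4 and 6.83 CPM and Cdkn1b at 2.32 and 1.75. Markers of interstitial cells summed to 0.22 and 0.89 CPM, of endothelium to 88.3 and 75.6, mostly Pecam1, and of red cells to 0.31 and 0.33, with Hbb-bt at 0 in both. The low-score group thus held 20 of the 24 cells carrying pregranulosa markers. Of the 4 immediate-early genes, all but Jun stayed at least 1.5-fold lower in the high-score group when those cells were left out. Wnt6, which is among the markers that picked those cells, was at 0.28 CPM in the high-score and 0.23 in the low-score group without them. Xist, the RNA that silences an X chromosome, was 4.06-fold lower with them and 1.5-fold without.

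The cells with a Y-linked UMI carried most of the Lefty transcripts. Eif2s3y, a translation factor gene of the Y chromosome, was at 9.14, 11.4, 12.1 and 6.43 CPM from the high-score to the low-score group, highest in the lower middle group. Lefty1 and Lefty2, inhibitors of NODAL known from male fetal germ cells, were at 30.1 and 41.0 CPM in the high-score and 14.4 and 22.4 in the low-score group, ratios of 2.10 and 1.83. Without the cells carrying a Y-linked UMI, Lefty1 was at 7.04 and 5.12 CPM, a ratio of 1.37 (1.10 to 1.73), and Lefty2 at 8.68 and 7.03, a ratio of 1.23 (1.01 to 1.51). Neither reached 1.5-fold in those cells. Within the cells carrying such a UMI, with high-score and low-score groups of 166 cells drawn anew, 58 of the mitotic genes were at least 1.5-fold higher and 33 of the S phase genes lower, where 6.75% of the genes compared were higher and 5.11% lower. Over all cells the counts were 61 and 33, where 3.51% and 3.64% were.

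Housekeeping groups were nearly level. Of 31 oxidative phosphorylation, 29 ribosome biogenesis and 30 spliceosome genes, 0 passed 1.5-fold in either direction, with median log2 ratios of -0.04, 0.06 and -0.00. Glycolysis genes had 0 of 19 past the fold, a median of -0.19, and 13 of 19 decreased at each step to the high-score group. The heat shock protein Hspa8 was at 3739 CPM in the high-score and 2621 in the low-score group, a ratio of 1.43. The nuclear RNA Malat1 was at 2049 and 1444, a ratio of 1.42 with the cells carrying pregranulosa markers and 1.53 (1.51 to 1.55) without them. Without the cells carrying a Y-linked UMI the ratio of Malat1 was 1.39 (1.37 to 1.40).

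Promoters of the genes that stood highest more often held the CHR. RefSeq gave a window for 6413 of the 8196 compared genes (the first listed was taken for the 1307 with more than 1), and both strands were searched. TTTGAA was in 11.6% of all windows and in 30 of 50 windows (60.0%) of genes at least 2-fold higher in the high-score group. In genes at least 2-fold lower it was in 2 of 52 (3.85%). Within 50 bases of the start on either side, the shares were 48.0% of the 2-fold higher genes, 3.10% of all and 3.85% of the 2-fold lower genes. In the spindle list 22 of 33 windows held it. CCAAT, which overlaps the CHR by a base or more in windows such as that of Miip, was in 76.0% of the 2-fold higher genes, 50% of the 2-fold lower and 40.3% of all. The E2F letters GCGGGAA were in 2.0% of the 2-fold higher genes, 25% of the 2-fold lower and 9.98% of all, and in 14 of 32 windows of the polymerase and fork list. Of the 15 named genes on the higher side 12 had a window, and 6 of these held the CHR, among them Kif23, Ect2 and Kpna2 beside the 3 printed above. Nusap1 and Knstrn, with windows, held none of the 3 motifs. A match is a description of the letters in these windows.

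**Figure D4:**
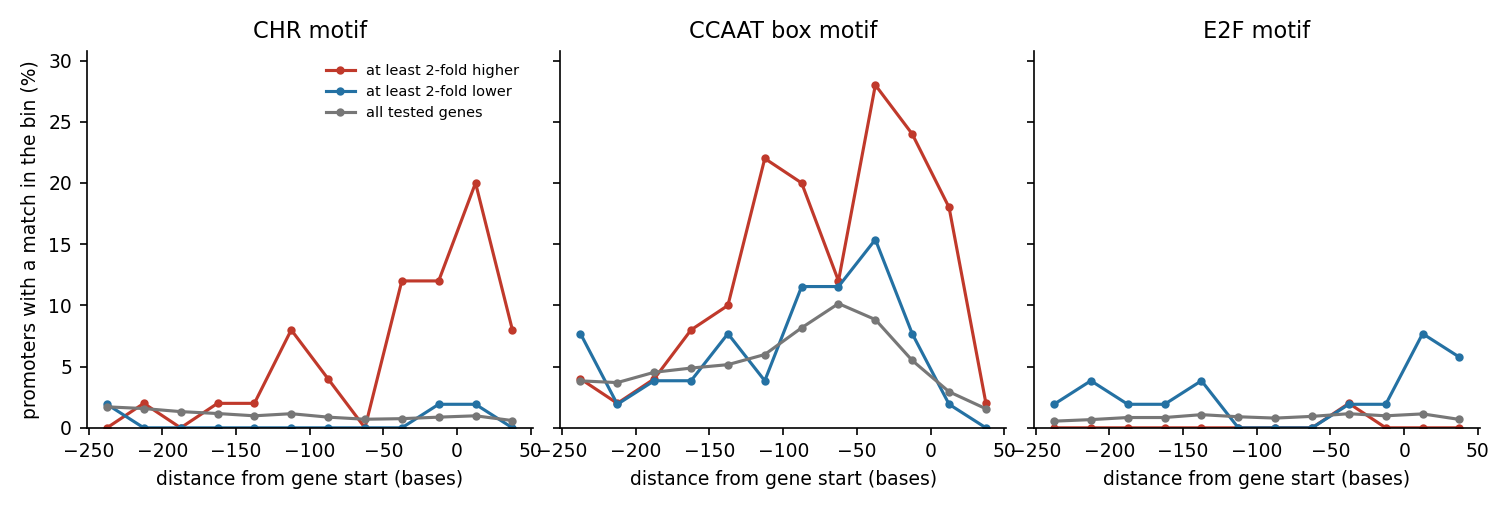
Share of promoters with a match to each motif in bins of 25 bases, by distance from the gene start (negative values lie before it), for genes at least 2-fold higher in the high-score group (red), at least 2-fold lower (blue) and all compared genes (grey). The CHR of the higher genes lies mostly within 50 bases of the start, where 48.0% of them have a match.

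Few cells of the later libraries reached the score of these cells. Scores were computed again after thinning each cell to 8000 UMIs, leaving out 60, 1213 and 415 shallower cells at E12.5, E14.5 and E16.5, and the threshold was set so that 25% of E12.5 cells lay above it. At E14.5, 273 of 7862 cells were above it (3.47%, exact binomial 95% interval 3.08% to 3.90%), and at E16.5 9 of 4948 (0.182%, 0.0832% to 0.345%). Unthinned, the shares were 2.38% and 0.131%. Median scores of the thinned cells were 0.92, 0.35 and 0.35 in time order. With 1 library per stage, the stage and the library cannot be told apart.

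**Figure D5:**
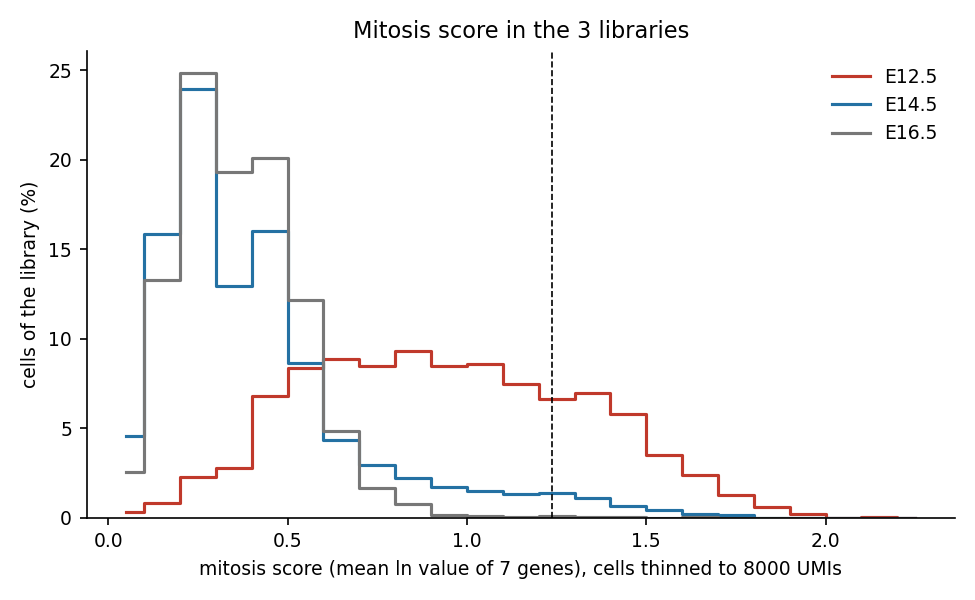
Distribution of the mitosis score (mean ln value of 7 genes, cells thinned to 8000 UMIs) as a share of each library's cells, with the E12.5 threshold as a dashed line. The E14.5 and E16.5 curves peak at low scores, and 3.47% and 0.182% of their cells lie beyond the line.

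The E14.5 cells above the threshold differed from the rest of their library in some germ cell genes. Pou5f1 was at 307.2 CPM above and 162.9 below it, a ratio of 1.89 (1.78 to 2.0), and Nanog at 17.6 and 2.78, a ratio of 6.32 (4.80 to 8.22). Stra8 was at 668.6 and 1500 CPM, 2.24-fold lower above the threshold, and Sycp3, of the meiotic chromosome axis, at 151.0 and 654.1, 4.33-fold lower. Both meiotic genes named were thus lower, and both pluripotency genes named higher, in these E14.5 cells. Dazl was at 1047 and 1117 CPM, a ratio of 0.94. In the 9 E16.5 cells above the threshold Stra8 was on the other side, at 617.4 CPM against 272.7 below it, a ratio of 2.26 (1.87 to 2.72). Rec8, another meiotic gene, was also higher in these 9 cells, at 157.1 and 18.0 CPM. Sycp3 was lower there as at E14.5, at 227.5 and 1706 CPM, and Sycp1 was 3.64-fold lower. Pou5f1 was higher as at E14.5, at 200.4 and 18.6 CPM, and Nanog had 0 UMIs in the 9 cells. Of these 9 cells, 5 lay above the 95th percentile of UMIs and 1 carried at least 5 pregranulosa markers. Their median was 20738 UMIs per cell, against 13003 below the threshold. In the E14.5 cells, Nusap1 was at 117.7 CPM above and 27.3 below the threshold, a ratio of 4.31. Prc1 was at 110.8 and 34.3 there, a ratio of 3.23. Median UMIs per E14.5 cell were 14108 above and 11422 below, and 63 of the 273 cells lay above the 95th percentile of UMIs of the cells used. At least 5 pregranulosa markers were carried by 3 of 273 against 105 of 7589 E14.5 cells. The part of depth and of doublets in the results at either stage was not tested.

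When high-score and low-score groups were drawn within the later libraries, spindle genes were higher with the score at E14.5 too, while few S phase genes passed the fold. These groups were cut at lower scores than those of E12.5. Unthinned, 87.5% of E14.5 and 98.3% of E16.5 cells scored at or below 0.727, the highest score of the E12.5 low-score group. In the highest against the lowest 25% of E14.5 cells, 20 of 34 spindle genes were at least 1.5-fold higher and 0 lower, where 7.01% of all genes were higher and 10.4% lower. Of 97 S phase genes at E14.5, 4 were lower and 7 higher, against 33 lower and 1 higher of 96 at E12.5. The counts of both libraries thus come from different ranges of the score. In E14.5 cells above against below the E12.5 threshold, Chaf1b was at 12.8 and 24.7 CPM and Slbp at 258.3 and 386.3. Pcna was at 129.1 and 168.6 CPM there and Rrm2 at 59.0 and 72.9, so these genes were lower above it. The pluripotency list had 16 of 22 members higher and 1 lower at E14.5. Among pregranulosa markers at E14.5, 6 of 8 were lower and 1 higher, and the part of these cells in the E14.5 counts was not tested. At E16.5, 2 of 35 spindle genes were higher, where 2.69% of all genes were higher and 0.293% lower. The difference between the libraries was not tested, since each stage is 1 library.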

How the data were processed

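Per the labels' protocols, single cells were loaded on the 10x Genomics Chromium system for 3' libraries. The submitters' processing notes name Cell Ranger 2.0.0, FastQC and the build mm10. No settings or cell filters are stated in these sources. The table the authors deposited holds 14133 genes in 19144 cells as natural log values, each the ln of 1 plus the UMIs scaled to 10000 per cell. Undoing the log gave whole UMIs within 0.01 for 100.0% of 68606039 non-zero values, and these were summed per group and given as CPM. Above 100 CPM, counting error (95%) was at most 7.38% of a group's value.

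The members, the 29 gene lists and the 5 cell type marker lists were chosen with earlier results of these data known. Cells were ranked by the deposited values of the 7 scoring genes. Scrublet, as built into scanpy 1.11.5, marked 3 of 4706 E12.5 cells (0.0637%) at an expected rate of 6%, far under that rate, and doublets may remain. Groups of the later libraries were drawn by the same score in each library, and background shares were taken over genes of at least 5 CPM. Named were the 15 genes of widest ratio in each direction at 20 CPM or more over all E12.5 cells (without scoring, mitochondrial, ribosomal protein and haemoglobin genes and Gm or Rik symbols), in each list the 3 members of highest level and the 2 of widest ratio, and Stra8, Nanog, Lefty1 and Lefty2. Genes outside this rule were named where a list had few members past the fold (Nsl1, Mad2l2, Tubg1, Dbf4, Zfp42, Tcl1, Id1, Jun, Junb), and others (such as Cdk1, Ccna2, Kif11, Kif2c, Aurkb, Cdc25c, Top2a, Pcna, Cdc7, Cdk2 and E2f1) were chosen for their known roles. All of these were chosen after their values were seen. Some genes that the rule names are not reported here. The ratio and its interval were tested on simulated counts that held counting error only. These had no variation between cells and no choice of cells by score, so the test says nothing on either. Alternatives changed the cells, depth, scaling, scoring genes, level and fold. Python 3.11.15, numpy 2.4.6, scipy 1.17.1 and pandas 2.3.3 were used.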

Additional observations from a re-analysis of the deposited data

How the results depend on the processing

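No paired analysis was possible because each stage is 1 library, and no replicate could be left out. The 22 alternatives between the groups, apart from the fold of 2, gave 3366 values for 161 genes. Of these values 2574 moved by less than the counting interval, 789 moved further and 3 reversed. A reversal was counted only for the 83 genes at least 1.5-fold higher or lower in the main comparison. Changes of sign in the other genes were not counted as reversals. Reversed were Ddx3y, a Y-linked gene, at a log2 ratio of -0.10 against all other E12.5 cells and -0.0048 within cells carrying a Y-linked UMI, and Xist at 1.07 within those cells. The counts were 288 higher and 298 lower genes, 61 mitotic genes higher and 33 S phase genes lower. Against all other E12.5 cells they were 97, 136 and, for S phase genes, 20. As differences of mean natural logs, which understate low genes, they were 11, 5, 10 and 3. At a fold of 2 they were 64, 75, 35 and 13. Requiring 1 CPM gave 574 higher and 734 lower genes, and 20 CPM gave 120 and 104. Within cells carrying a Y-linked UMI 544 genes were higher, in groups of 166 cells. The ratio of median UMIs per cell was 1.075, against 1.16 between the outer deciles, 0.989 within cells carrying a Y-linked UMI and 1.00 within the middle of the depth range. Of E14.5 cells 3.47% passed the threshold at 8000 UMIs, 2.77% at 5000 and 2.38% unthinned. The other alternatives stayed within 1.5 times of these counts. One library per stage limits every result to counting error.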
